A study of Mus musculus with 8 samples.

Results

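The enzymes that turn cholesterol into bile acids were examined in the livers of ovariectomized (OVX) mice that ate a high fat diet with white button mushroom powder (HFD+WBM) or the high fat diet alone (HFD). The 10 genes were taken by name: Cyp7a1, Cyp8b1, Cyp27a1, Cyp7b1, Cyp39a1, Hsd3b7, Akr1d1, Amacr, Baat and Slc27a5. Each was measured by 1 probe set that names that gene alone, so that all 10 were found among 19938 genes on the array. Each of the 8 mice had an Affymetrix Mouse Gene ST array of its own, 4 mice with HFD+WBM and 4 with HFD, and values are given on the log2 scale of the deposited table. All mice were female C57B1/6J, lost their ovaries at 7 weeks of age and stayed on their diet for 3 months. No sham-operated mouse is among these arrays, so both groups lacked ovarian estrogen. The mushroom powder was added to the recipe of the diet, and corn starch was cut by less than the weight of the powder. The other listed ingredients stayed the same. The HFD mice were given the amount of food that the HFD+WBM mice ate, and all were fasted for a short time before sacrifice. No source used here gives the time of day at sacrifice.

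Bile acids are made from cholesterol in hepatocytes, where they are the main route by which the body disposes of sterol. In the classic pathway CYP7A1 makes the first and rate-limiting step, and in the alternative pathway CYP27A1 oxidizes the side chain before CYP7B1 hydroxylates the ring. The product returns as a signal: bile acids activate the receptor FXR (Nr1h4), which induces the repressor SHP (Nr0b2) and lowers Cyp7a1 and Cyp8b1.

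None of the 10 enzymes passed the test between the diets. At p under 0.05 before adjustment (limma, a moderated test fitted over all genes) 0 were lower and 0 were higher with HFD+WBM, against 6.90% of all 19938 genes that were lower, 4.85% that were higher and 11.7% in either direction. That share would correspond to about 1 gene in 10. The study's thresholds, p under 0.05 and a change of at least 2-fold, were passed by 0.762% of all genes and by 0 of the 10. The unadjusted p of the 10 ran between 0.14 and 0.77, and the adjusted p over all genes between 0.54 and 0.92. The setting that called any enzyme was limma with its prior variance tied to signal level, under which Hsd3b7 was lower and Cyp39a1 was higher before adjustment, both with an adjusted p of 0.34. Of the 10 estimates 6 were below 0, where 49.3% of all genes were, and their median was -0.05 (log2) against 0.01 over all genes. For all 10 the groups overlapped, while the HFD+WBM values lay wholly below the HFD values for 5.02% of all genes and wholly above them for 3.21%. With 4 mice in each group the lowest two-sided p that an exact permutation test allows is 0.029, and its smallest p among the enzymes was 0.14.

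**Figure D1:**
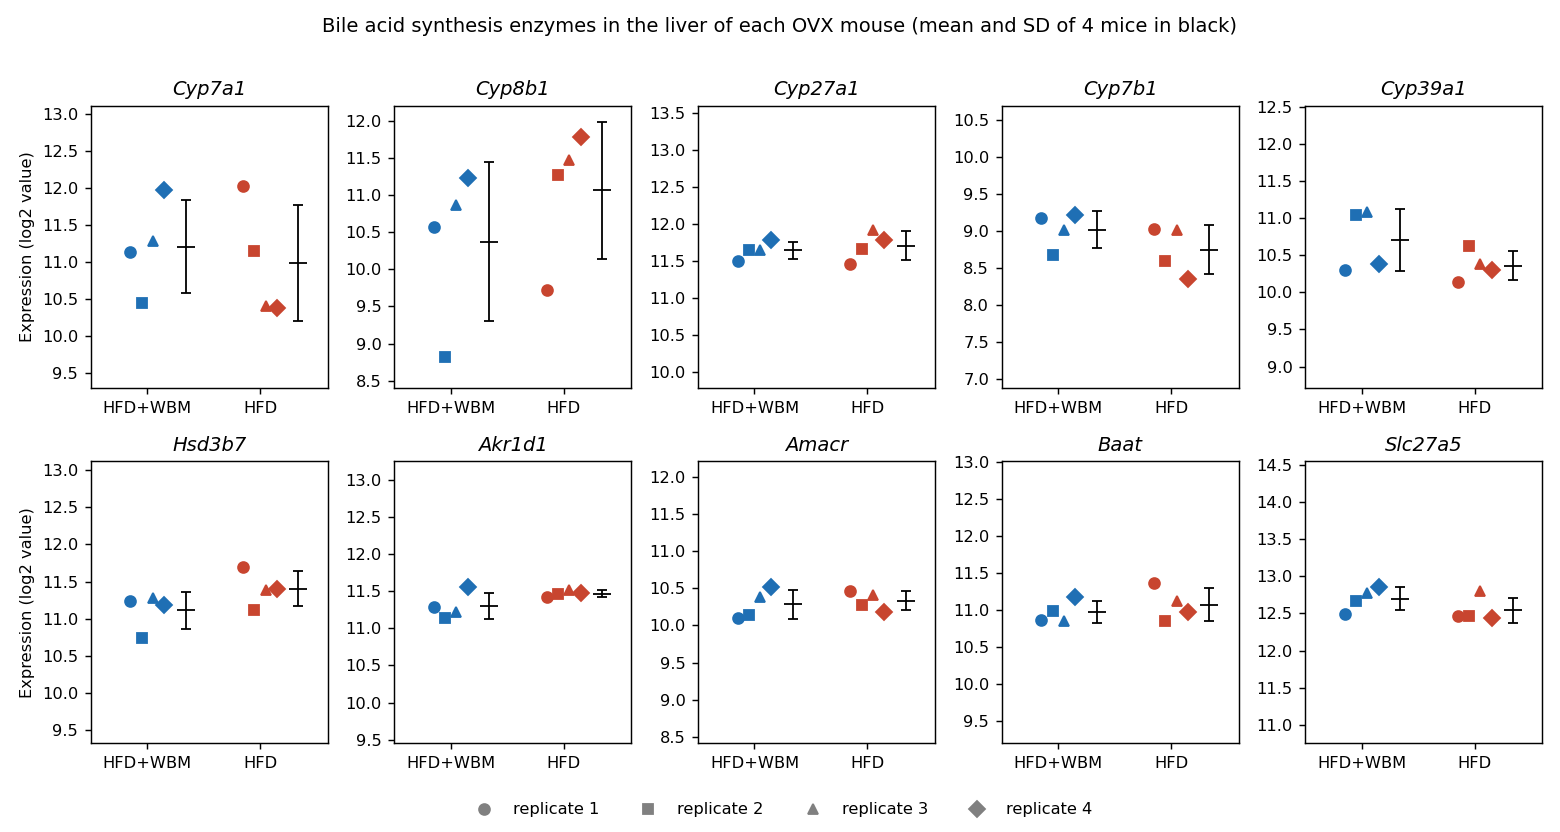
Expression of the 10 bile acid synthesis enzymes (log2 value, every panel spanning the same number of log2 units) per OVX mouse, HFD+WBM in blue and HFD in red, with a marker shape per replicate number and the mean and SD of 4 mice in black. The groups overlap in every panel, and the points of Cyp7a1 and Cyp8b1 are spread far more widely than those of the other enzymes.

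How firmly a change can be bounded differed between the enzymes. For 8 of the 10 the 95% interval of the difference lay inside a 2-fold change in both directions, and for 5 of them (Cyp27a1, Akr1d1, Amacr, Baat and Slc27a5) it lay inside 1.5-fold. For Cyp7a1 and Cyp8b1 it did not, and these varied most between mice of the same diet. The SD within a diet was 1.00 (log2) for Cyp8b1 and 0.71 for Cyp7a1, against 0.13 to 0.33 for the other 8 enzymes and a median of 0.30 over all genes. The highest mouse exceeded the lowest by 7.87-fold for Cyp8b1 and by 3.15-fold for Cyp7a1. For the other enzymes this ratio was 1.33 to 1.95.

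Cyp7a1, the gatekeeper of the classic pathway, lies on chromosome 4 (GRCm38.p6, from 6265612 to 6275632). It had log2 values of 11.13, 10.44, 11.29 and 11.97 in HFD+WBM replicates 1 to 4, against 12.03, 11.14, 10.40 and 10.38 in HFD replicates 1 to 4. The highest mouse and both of the lowest were fed HFD, and the HFD+WBM mice lay between them. The mean was 11.21 ± 0.63 with HFD+WBM and 10.99 ± 0.78 with HFD (SD, n = 4 each). This gave a log2 fold change of 0.22 with a standard error of 0.42 and a 95% interval of -0.71 to 1.16 (limma, adjusted p = 0.85, exact permutation p = 0.63). The estimate was -0.03 once HFD+WBM replicate 4 was left out and 0.57 once HFD replicate 1 was, so that its sign rests on single mice.

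Cyp8b1 adds the hydroxyl group that distinguishes cholic acid from the chenodeoxycholic acid branch, and so sets the make-up of the bile acid pool. It had log2 values of 10.57, 8.81, 10.87 and 11.23 in HFD+WBM replicates 1 to 4, against 9.72, 11.27, 11.48 and 11.79 in HFD replicates 1 to 4. All HFD mice but replicate 1 lay above all HFD+WBM mice. The mean was 10.37 ± 1.07 with HFD+WBM and 11.06 ± 0.92 with HFD (SD, n = 4 each). The log2 fold change of -0.69, with a standard error of 0.57 and a 95% interval of -1.98 to 0.60 (limma, adjusted p = 0.64, exact permutation p = 0.37), was the estimate farthest from 0 among the 10 enzymes. Leaving out HFD replicate 1 gave -1.14 (limma, adjusted p = 0.46), and leaving out HFD+WBM replicate 2 gave -0.17 (adjusted p = 0.91). The interval holds both no change and a fall of more than 2-fold.

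The RefSeq promoter table used here matched 4 of the 10 enzymes, and for Cyp8b1 and Hsd3b7 its start site is also the outer end of the gene. The 150 bases before that start are shown for both because regulators that can bind such elements are described below. Positions count back from the start site at -1, and capitals mark matches to either of the elements searched for on both strands, CAAAGTCCA of the hepatocyte factor HNF4A and CAAGGNCA of LRH-1 (Nr5a2).
Cyp8b1, chr9:121916306-121916455, minus strand, GRCm38.p6: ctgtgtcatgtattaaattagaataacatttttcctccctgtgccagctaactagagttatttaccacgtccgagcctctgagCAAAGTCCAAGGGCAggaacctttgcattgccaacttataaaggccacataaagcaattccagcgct
Hsd3b7, chr7:127800459-127800608, plus strand, GRCm38.p6: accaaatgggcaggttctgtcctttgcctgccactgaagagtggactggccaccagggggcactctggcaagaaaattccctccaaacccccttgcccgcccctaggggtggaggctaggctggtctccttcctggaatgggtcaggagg
In Cyp8b1 the first element stood at -67 to -59 and the second at -60 to -53, so that they share bases, and both run along the strand of the gene. Over the 250 bases before the start, CAAAGTCCA was found in 0.384% and CAAGGNCA in 5.53% of 32851 promoters. Neither was found in Hsd3b7, Cyp27a1 or Akr1d1. The clock-related elements CACGTG (6.02% of promoters) and TTANGTAA (2.06%) were found in none of the 4. The elements were chosen after values or sequences were seen, so finding them in Cyp8b1 was not a test, however rare they are. A match of letters is a description and not a measured site.

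Since CYP8B1 acts on intermediates that CYP7A1 supplies, the difference between the values of the 2 genes was taken within each mouse. As each probe set has its own scale, only its changes between mice carry meaning. Cyp8b1 minus Cyp7a1 was -0.56, -1.63, -0.42 and -0.74 (log2) in HFD+WBM replicates 1 to 4, against -2.31, 0.13, 1.08 and 1.42 in HFD replicates 1 to 4. The HFD+WBM mice lay below HFD replicates 2, 3 and 4, and HFD replicate 1 lay below every other mouse, with the highest Cyp7a1 of all and the second lowest Cyp8b1. The mean was -0.84 ± 0.54 with HFD+WBM and 0.08 ± 1.68 with HFD (SD, n = 4 each). Cyp8b1 minus Cyp7a1 was chosen as a measure after the values were seen and is given without a test.

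**Figure D2:**
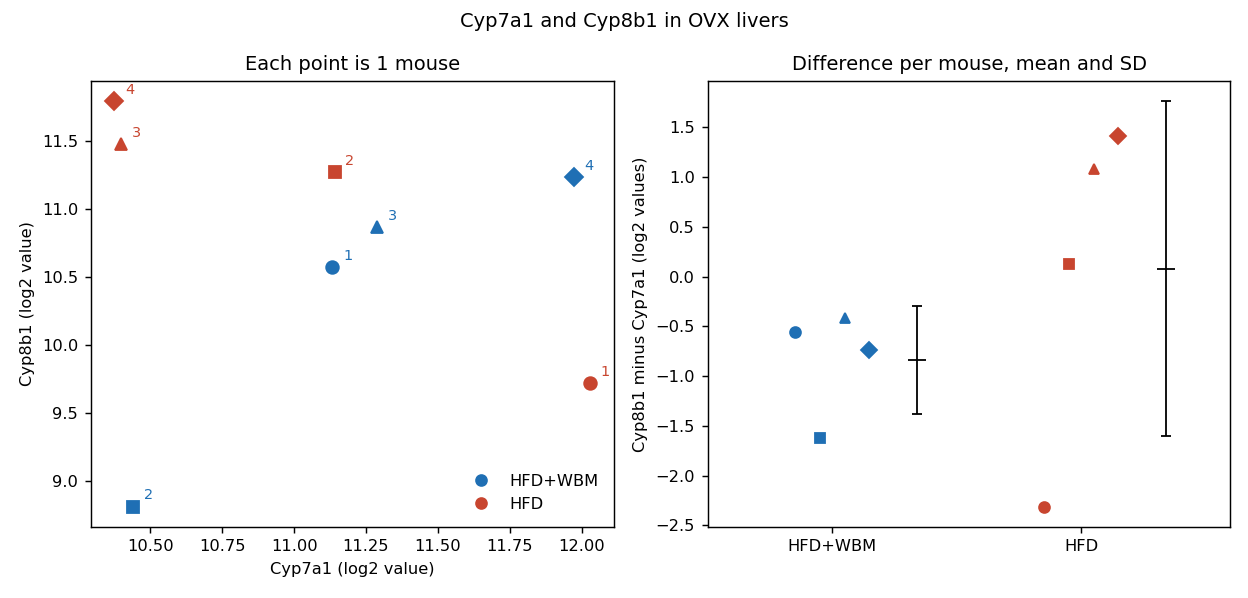
Left, Cyp8b1 against Cyp7a1 (log2 values), each point 1 OVX mouse with its replicate number, HFD+WBM in blue and HFD in red. Right, Cyp8b1 minus Cyp7a1 in each mouse (log2 values) with the mean and SD of 4 mice in black; HFD replicates 2, 3 and 4 lie above all HFD+WBM mice, and HFD replicate 1, at -2.31, lies lowest of all 8.

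The next enzymes of the ring, shared by both pathways, had estimates below 0 and did not pass the test. Hsd3b7 oxidizes the sterol ring after the first hydroxylation. It was 11.23, 10.74, 11.28 and 11.19 in HFD+WBM replicates 1 to 4, against 11.70, 11.12, 11.39 and 11.40 in HFD replicates 1 to 4. HFD replicate 2 alone lay within the range of the HFD+WBM mice, and HFD+WBM replicate 2 lay below all others. With means of 11.11 ± 0.25 for HFD+WBM and 11.40 ± 0.24 for HFD (SD, n = 4 each), the log2 fold change was -0.29 (standard error 0.18; limma, adjusted p = 0.54), the smallest p of the 10 and at rank 5376 among all genes. It was -0.17 without HFD+WBM replicate 2. Akr1d1, which reduces the double bond of the ring, was 11.29, 11.15, 11.22 and 11.55 in HFD+WBM replicates 1 to 4, against 11.42, 11.46, 11.52 and 11.48 in HFD replicates 1 to 4. The HFD mice lay close to each other, with 3 HFD+WBM mice below them and 1 above. Its log2 fold change was -0.17 (standard error 0.14; limma, adjusted p = 0.64).

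The alternative pathway begins with Cyp27a1, the mitochondrial sterol hydroxylase of the side chain, whose values overlapped almost fully. They ran between 11.50 and 11.78 with HFD+WBM and between 11.46 and 11.92 with HFD, and the log2 fold change was -0.06 (standard error 0.15; 95% interval -0.40 to 0.28). Cyp7b1, the oxysterol hydroxylase that follows it and a male-biased gene of mouse liver, was 9.17, 8.67, 9.005 and 9.22 in HFD+WBM replicates 1 to 4, against 9.03, 8.60, 9.01 and 8.35 in HFD replicates 1 to 4. The 2 highest mice were fed HFD+WBM and the 2 lowest HFD, with the others intermixed, and the log2 fold change was 0.27 (standard error 0.20; limma, adjusted p = 0.60). It was 0.14 without HFD replicate 4. Cyp39a1, a hydroxylase that prefers an oxysterol of brain origin, was 10.30, 11.04, 11.08 and 10.38 in HFD+WBM replicates 1 to 4, against 10.14, 10.62, 10.38 and 10.30 in HFD replicates 1 to 4. HFD+WBM replicates 2 and 3 stood above all HFD mice, while replicates 1 and 4 lay among them, and the log2 fold change was 0.34 (standard error 0.22; limma, adjusted p = 0.55), the highest of the 10. Leaving out 1 of the high HFD+WBM mice gave 0.23 (replicate 2) or 0.21 (replicate 3). The estimates of both oxysterol hydroxylases and of Cyp7a1 were above 0 and those of Cyp27a1, Hsd3b7, Akr1d1 and Cyp8b1 below it, none past the threshold. The signs therefore did not divide by pathway.

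None of the enzymes of side chain inversion and conjugation passed the test. Amacr, the peroxisomal racemase that prepares the side chain for oxidation, ran between 10.10 and 10.52 with HFD+WBM and between 10.18 and 10.46 with HFD (log2 fold change -0.05, 95% interval -0.39 to 0.30). Slc27a5, the bile acyl-CoA synthetase, ran between 12.49 and 12.85 with HFD+WBM and between 12.44 and 12.80 with HFD. Its log2 fold change was 0.15 (95% interval -0.19 to 0.50), and HFD replicate 3, at 12.80, stood apart from the other HFD mice, all at 12.47 or below. Baat, which joins bile acids to taurine or glycine, ran between 10.85 and 11.17 with HFD+WBM and between 10.85 and 11.36 with HFD (log2 fold change -0.11, 95% interval -0.47 to 0.26).

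Across the 10 enzymes single mice stood out within either diet. HFD+WBM replicate 4 lay above the gene's mean for 8 enzymes and was the highest mouse for 4 (Cyp7b1, Akr1d1, Amacr and Slc27a5). HFD+WBM replicate 2 lay above it for 2 and was the lowest mouse for 3 (Cyp8b1, Hsd3b7 and Akr1d1). HFD replicate 1 was the highest for Cyp7a1, Hsd3b7 and Baat and the lowest for Cyp27a1 and Cyp39a1. The mean of the 10 genes ran between 10.63 and 11.19 in HFD+WBM mice and between 10.91 and 11.04 in HFD mice. Among all genes, those whose course over the 8 mice came nearest to that of Cyp7a1, by the root mean square difference of values centred per gene, were Pabpc6 (0.27), Gm1527 (0.27), Mir18 (0.30), Olfr669 (0.30) and Gm10536 (0.33). All of these are dim, with group means of 5.11 to 6.23, against 11.21 and 10.99 for Cyp7a1. Whether their likeness to Cyp7a1 is more than noise was not tested. For Hsd3b7 the nearest genes were Mtif2 (0.09), Blzf1 (0.09), Cox15 (0.10), Herc6 (0.10) and Arfgap1 (0.11). No gene of the lists described below is among either set.

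The array of HFD replicate 3 stood apart from the rest, since its genes deviated from the average of its fellow arrays with an SD of 0.68 (log2), where the other 7 had 0.38 to 0.50. Without it 0 of the 10 enzymes were called, and their median log2 fold change was -0.0036. Hepatocyte markers were bright, as the liver label calls for. Their mean ran between 13.70 and 13.82 with HFD+WBM and between 13.65 and 13.76 with HFD. Of these 9 markers 0 were called, with a median log2 fold change of 0.03. Of 12 macrophage markers 11 were lower with HFD+WBM (median -0.69), where 6.90% of all genes were lower and 4.85% higher. The mean of the macrophage markers ran between 8.77 and 9.23 with HFD+WBM against 9.25 and 9.99 with HFD. Of 10 endothelial markers 3 were lower (median -0.31), and 1 was without HFD+WBM replicate 1 or 3 or HFD replicate 3 or 4. Of 10 stellate cell and matrix markers 4 were lower and 1 higher (median -0.35), with 2 lower without HFD+WBM replicate 2 or 3 or HFD replicate 3 or 4 and 2 higher without HFD replicate 2. Of 6 cholangiocyte and 8 lymphocyte markers none was called with all mice included. In whole liver RNA fewer cells of a type and less RNA per cell cannot be told apart, and the part of these cells in the results here was not tested.

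Among 15 other measured enzymes, carriers and electron donors of bile acid synthesis, 2 were lower with HFD+WBM, none was higher and 13 did not pass (median log2 fold change -0.09). Over all genes 6.90% were lower and 4.85% higher. Scp2, the peroxisomal thiolase and sterol carrier that completes side chain shortening, was 12.11, 12.19, 12.24 and 12.27 in HFD+WBM replicates 1 to 4, against 12.72, 12.56, 12.82 and 12.77 in HFD replicates 1 to 4. Every HFD+WBM mouse lay below every HFD mouse, by 0.29 (log2) between the nearest pair of mice. The log2 fold change was -0.51 (standard error 0.13; limma, adjusted p = 0.37, exact permutation p = 0.029), and it stayed past p under 0.05 before adjustment when any single mouse was left out. With the prior variance tied to signal level its adjusted p was 0.018, a setting under which 139 genes passed after adjustment against 0 in the fit used here. Scp2 also carries other lipids and serves branched fatty acids, so it is not confined to bile acids. Cyp46a1, the cholesterol hydroxylase known from brain, was 1.63-fold lower, which rests on HFD replicate 4: the log2 fold change was -0.70 with all mice (limma, adjusted p = 0.41) and -0.41 without that mouse, where it missed p under 0.05, and it also missed it without HFD+WBM replicate 2, 3 or 4. Cyp2c70, which makes the muricholic acids of the mouse, was lower in every HFD+WBM mouse (12.47, 12.45, 12.22 and 12.28, against 12.61, 12.71, 13.06 and 12.48 with HFD), with a log2 fold change of -0.36 that just missed p under 0.05 (limma, adjusted p = 0.43). Its nearest pair of mice, 12.469 with HFD+WBM and 12.475 with HFD, was almost level. Acox2, the peroxisomal oxidase of the bile acid side chain, had one of -0.42 (standard error 0.21; limma, adjusted p = 0.46), and one of -0.25 without HFD+WBM replicate 2. Both Cyp2c70 and Acox2 passed p under 0.05 with the prior variance tied to signal level, which brought the count of this list to 4.

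**Figure D3:**
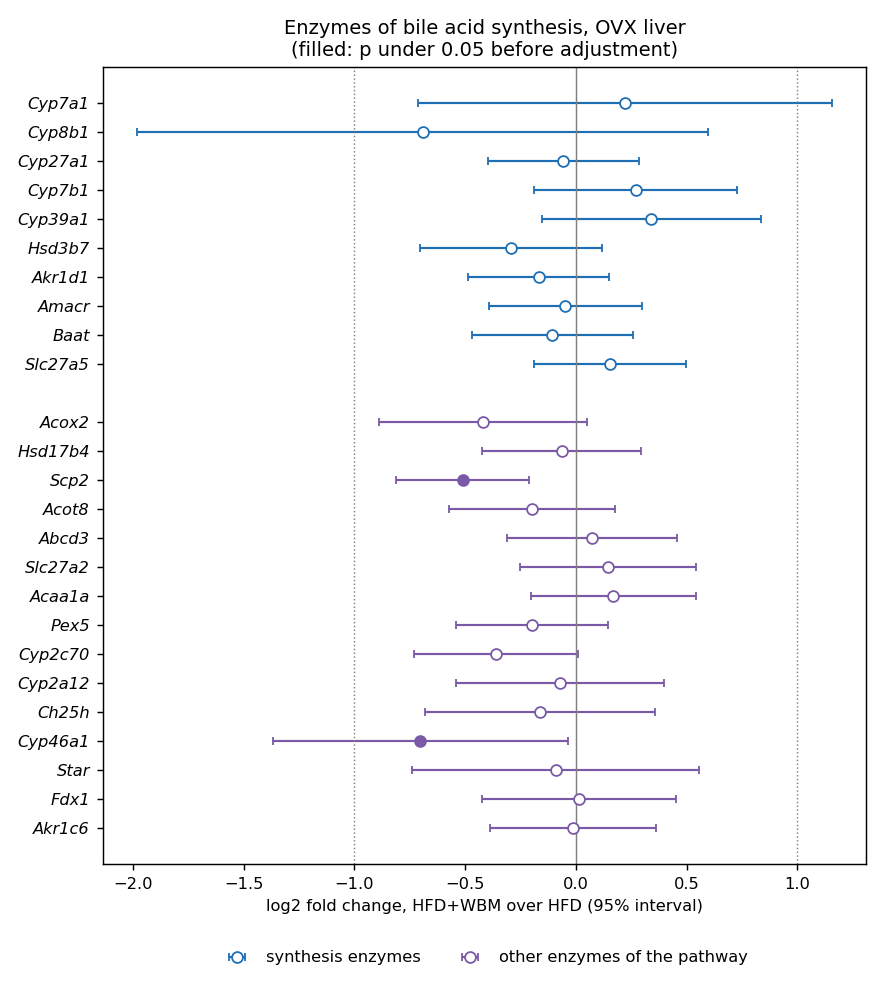
Log2 fold change of each enzyme, HFD+WBM over HFD (4 OVX mice each), with the 95% interval from limma; blue points are the 10 bile acid synthesis enzymes and purple points the 15 other enzymes and carriers, filled where p before adjustment was under 0.05, and dotted lines mark a 2-fold change. Scp2 and Cyp46a1 alone are filled, and the intervals of Cyp7a1 and Cyp8b1 are the ones among the 10 that cross a dotted line.

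Of 17 measured regulators of Cyp7a1 and Cyp8b1, 4 were higher with HFD+WBM, none was lower and 13 did not pass (median log2 fold change 0.30). The shares over all genes were 4.85% higher and 6.90% lower. Nr5a2, which encodes LRH-1, an activator of Cyp8b1 whose element was printed above, was 9.37, 9.36, 9.11 and 9.36 in HFD+WBM replicates 1 to 4, against 9.01, 9.02, 8.65 and 9.02 in HFD replicates 1 to 4. Every HFD+WBM mouse lay above every HFD mouse, and replicate 3 was the lowest of either group. The log2 fold change was 0.37 (standard error 0.15; limma, adjusted p = 0.40), and it missed p under 0.05 without HFD+WBM replicate 1, 2 or 4 or HFD replicate 3, where it was 0.28 to 0.35. Foxo1, a transcription factor held back by insulin, was 1.33-fold higher, with every HFD+WBM mouse above every HFD mouse (log2 fold change 0.41, standard error 0.15, limma adjusted p = 0.39), and missed p under 0.05 without HFD+WBM replicate 4 or HFD replicate 1 or 3. Vdr, the vitamin D receptor, which also senses secondary bile acids, was 1.53-fold higher, at 6.47 to 7.32 with HFD+WBM against 6.08 to 6.32 with HFD, and passed p under 0.05 when any single mouse was left out and in the other settings that kept it. It is not among the 50% brightest genes, and its log2 fold change was 0.62, but 0.37 with 64 added to the linear values. Prox1, a corepressor at Cyp7a1, was 1.38-fold higher (limma, adjusted p = 0.40), and HFD replicate 1 (10.63) lay among the HFD+WBM mice (10.48 to 10.68). It missed p under 0.05 without HFD+WBM replicate 1, 3 or 4 or HFD replicate 2, 3 or 4. No gene of the list passed after adjustment over all genes (adjusted p of 0.37 or more). The count of 4 fell to 2 without HFD replicate 3 (Vdr and Nr0b2) and to 1 without HFD+WBM replicate 4 (Vdr). The mean of the 17 genes ran between 9.86 and 9.97 in HFD+WBM mice and between 9.66 and 9.72 in HFD mice. As the list holds both activators and repressors, this mean gives no direction for Cyp7a1 or Cyp8b1.

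The genes of the FXR feedback did not move as one. For Nr1h4 itself the estimate was 0.01 (log2, standard error 0.16). Nr0b2, the repressor SHP, was 10.82, 10.58, 9.96 and 9.89 in HFD+WBM replicates 1 to 4, against 8.94, 9.64, 10.77 and 10.04 in HFD replicates 1 to 4. The groups overlapped through HFD replicates 3 and 4, and HFD replicate 1 was the lowest of all mice. The log2 fold change was 0.46 (standard error 0.37; limma, adjusted p = 0.62), and rests on single mice: it was 0.16 without HFD replicate 1 (adjusted p = 0.86) and 0.77 without HFD replicate 3, where it passed p under 0.05 before adjustment (adjusted p = 0.41). Fgfr4, the hepatocyte receptor for the intestinal signal FGF15, was estimated at -0.33 (log2), Nr1h3, which encodes LXR alpha, at -0.20 and Hnf4a at 0.30, none past p under 0.05.
Of 13 hepatic FXR targets listed, some of them known from human liver, 2 were lower, 1 was higher and 10 did not pass (median log2 fold change -0.01). Among all genes 6.90% were lower and 4.85% higher. Those lower were the bile salt exporters Abcb11 (log2 fold change -0.40, limma adjusted p = 0.38) and Slc51b (-1.44, adjusted p = 0.37). Slc51b is a dim gene, at 4.65 to 6.63 with HFD+WBM against 6.84 to 7.61 with HFD. With 64 added to the linear values its log2 fold change shrank to -0.82, still past p under 0.05. Slc51a, also dim and on the same list, did not pass (log2 fold change -0.24, limma adjusted p = 0.68). Fetub, the gene of fetuin B, was higher (0.38, limma adjusted p = 0.38), and missed p under 0.05 without HFD+WBM replicate 4 (0.33). With Nr0b2 also past the threshold, 2 were higher without HFD replicate 3. The counts and median of this list give no direction for FXR activity, which was not tested.

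**Figure D4:**
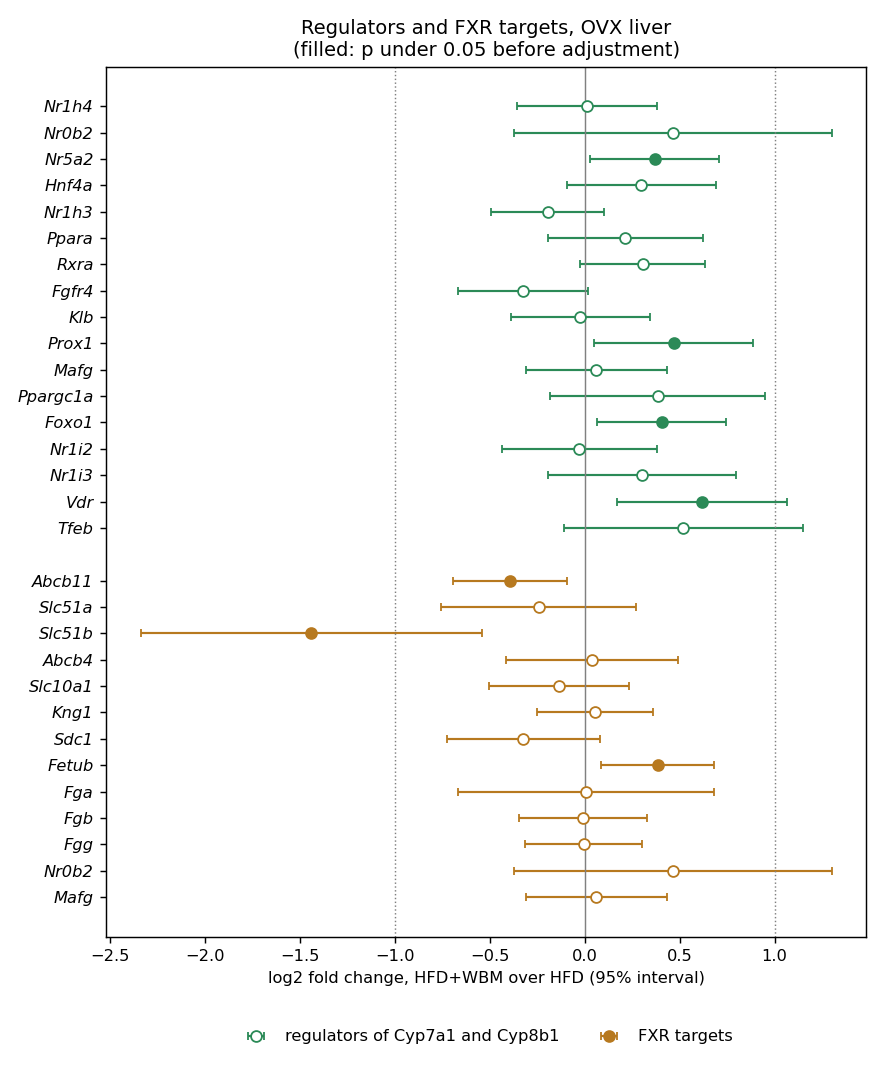
Log2 fold change of each gene, HFD+WBM over HFD (4 OVX mice each), with the 95% interval from limma; green points are the 17 regulators of Cyp7a1 and Cyp8b1 and ochre points the 13 FXR targets, of which Nr0b2 and Mafg stand in both lists, filled where p before adjustment was under 0.05, and dotted lines mark a 2-fold change. Nr5a2, Prox1, Foxo1, Vdr and Fetub are filled above 0, and Abcb11 and Slc51b below it.

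Other programmes that are known to act on these enzymes were read in the same fit. At p under 0.05 before adjustment 6.90% of all genes were lower and 4.85% higher. A single call in either direction in a list of this size is not far from that share. Cyp7a1 follows the daily clock, and of 13 clock genes 3 were higher (Tef, Hlf and Per1) and 2 lower (Arntl and Clock) with HFD+WBM. Arntl, the core clock activator, was 5.84 to 6.47 with HFD+WBM against 6.50 to 7.78 with HFD (log2 fold change -0.98, limma adjusted p = 0.37). The other calls were less stable. Leaving out single mice gave 0 to 3 higher, the fewest without HFD replicate 3, with 1 without HFD+WBM replicate 3 or 4 or HFD replicate 4. It gave 1 or 2 lower, with 1 without HFD+WBM replicate 1 or 3 or HFD replicate 1, 3 or 4. Whether clock phase had a part in the Cyp7a1 values was not tested. Cyp7b1 and Cyp39a1 are known to differ between the sexes in mouse liver. Of 12 female-biased genes 3 were higher (Cux2, Fmo2 and Acot3, with log2 fold changes of 0.93, 0.51 and 0.56) and A1bg was lower (log2 fold change -3.49). Their adjusted p was 0.37 to 0.38 (limma). A1bg varied widely, at 3.67 to 8.21 with HFD+WBM against 8.34 to 10.92 with HFD. With 64 added to the linear values its log2 fold change was -2.43. Of 11 male-biased genes C6 alone was called, 1.53-fold lower, and it missed p under 0.05 without HFD+WBM replicate 3 or HFD replicate 1 or 3. Several of these enzymes are graded along the liver lobule. Of 11 pericentral genes Cyp1a2 was higher (1.45-fold) and Rhbg lower (1.67-fold), and of 9 periportal genes none was called.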

How the data were processed

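Liver RNA of 8 OVX mice was hybridized, 1 array per mouse, and mice were grouped by the submitters' labels. Background correction, normalization and summary by the IterPLIER method were done by the authors in Affymetrix Power Tools 1.8.6, which the submitters' processing notes name. Their deposited table holds 28944 probe sets on the log2 scale (0.0002 to 14.78). No source used here states an offset, detection calls or a genome build, so dim genes carry no background limit. That the replicate labels stand for separate mice is taken from the methods.

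Of the probe sets, 21789 name 1 gene, 1621 several and 5534 none in the platform annotation. Names were checked by gene number against RefSeq for GRCm38.p6 (21698 matched). Per gene the probe set with the highest mean was used, leaving 19938 genes. Diet was the only term of the limma fit (lmFit, eBayes; limma 3.58.1, R 4.3.3), with Benjamini-Hochberg adjustment over all genes. Intervals are at 95% from limma's moderated variance. The script was tested on simulated data. Genes named were the 10 enzymes and, per list, up to 4 genes with the smallest p. Per1, Nr0b2, Nr1h4, Hnf4a, Nr1h3, Fgfr4 and Slc51a, and the motifs, were chosen after values or sequences were seen. The enzymes and all gene lists were chosen with earlier results of these data known. Listed genes with no probe set naming them alone were not analysed here.

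Other settings were centring each array, quantile normalization, adding 16 or 64 to linear values, the 50% brightest genes, averaging probe sets, a prior variance tied to signal level, array weights, the methods' t-test with equal variances (named there for the diets in vivo, while for the arrays the methods name the ArrayTools package), a replicate block and leaving out each mouse. The number of arrays limits the precision.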

Additional observations from a re-analysis of the deposited data

Results flagged for a closer look

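Within-group outliers were looked for in 76 groups of 4 mice, of which chance alone would flag about 1 in 20, and 5 were found. Among the bile acid synthesis enzymes, Hsd3b7 in HFD+WBM replicate 2 was 10.74, below the other HFD+WBM mice at 11.19 to 11.28. Slc27a5 in HFD replicate 3 was 12.80, above the other HFD mice at 12.44 to 12.47. Among the other named genes, Cyp46a1 in HFD replicate 4 was 8.85, above 7.58 to 7.72 in the other HFD mice. Nr5a2 was low in replicate 3 of both groups, with 9.11 in the HFD+WBM group, whose remaining mice had 9.36 to 9.37, and 8.65 in the HFD group, whose remaining mice had 9.01 to 9.02.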

How the results depend on the processing

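The count of 0 enzymes lower and 0 higher held under every setting tried, leaving out each mouse included (0 to 0 in both directions), except with the prior variance tied to signal level, which gave 1 lower (Hsd3b7) and 1 higher (Cyp39a1). Of 180 repeats of the 10 log2 fold changes, 174 kept their direction and side of the threshold. The exceptions were those 2 calls and 4 changes of sign, all in estimates that were called in no setting: With single mice left out, the log2 fold change of Cyp7a1 ran from -0.033 (HFD+WBM replicate 4 left out) to 0.570, that of Cyp27a1 from -0.139 to 0.0136 (HFD replicate 3 left out) and that of Amacr from -0.125 to 0.0129 (HFD+WBM replicate 1 left out; 0.0025 for replicate 2). Of the other named genes Nr1h4 changed sign, with values of -0.0599 to 0.118. For these genes 427 repeats kept their side of the threshold, 50 lost it, 21 gained it and 3 changed sign, the 3 being those of Nr1h4. Slc51a and the genes nearest in pattern were not part of these repeats. These alternatives for other named genes and lists were chosen after seeing the data. The labels do not say whether the replicate numbers pair the mice. Deviations from the group means of same-numbered arrays correlated at -0.12 to -0.02, which cannot decide it. With the replicate number as a block, 0 enzymes were lower and 0 higher, and Cyp8b1 had the same estimate, -0.69. The cause of the changes was not tested. With 4 mice a group, a change of Cyp8b1 near 2-fold was not detectable against its spread.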
